A study of Homo sapiens with 15 samples.

Results

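The 10 genes described here code for cytokines of the interleukin-6 type, colony-stimulating factors, IL-24, 2 receptor chains and 1 feedback inhibitor: IL6, IL11, LIF, CSF1, CSF2, CSF3, IL24, IL6ST, OSMR and SOCS3. They were taken by their gene symbols, and 9 of the 10 had a named probe set among 11963 genes measured on 22277 probe sets; CSF2 was not analysed here. The RNA came from MCF-10A, an immortalized, non-tumorigenic line of human mammary epithelial cells, and was taken 48 hours after infection with a retrovirus or an adenovirus. Cells infected with a short hairpin RNA against the DNA-binding domain common to p63 isoforms (shDBD, 2 arrays) or against isoforms with the transactivation domain (shTA, 2 arrays) were set against cells with the empty hairpin vector (shRNA vector, 2 arrays). Cells overexpressing the isoform ΔNp63α (3 arrays), which lacks the transactivation domain, or TAp63γ (3 arrays), which has it, were set against cells with the empty overexpression vector (3 arrays). The labels call the replicates biological, but do not say whether they were separate infections, nor which virus each part of the study used. The p63 transcript was not analysed here, so neither knockdown nor overexpression was checked at the level of p63.

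Cytokines of the interleukin-6 type bind a receptor of their own and then the shared signalling chain gp130, the product of IL6ST. Bound gp130 activates JAK kinases and the transcription factor STAT3, which switches on SOCS3, and the SOCS3 protein blocks the receptor in turn. The colony-stimulating factors act on myeloid cells through separate receptors, and epithelial cells are known to release them during inflammation.

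Values are log2 expression levels. A change is a difference of log2 means, tested group by group with limma, and a gene is said to have risen or fallen where its Benjamini-Hochberg adjusted p over all 11963 genes was below 0.05. The median log2 level per array was 7.19 to 7.21 for knockdown arrays and 6.95 to 6.98 for overexpression arrays, and groups were therefore compared only within an arm. Correlations between replicate arrays were 0.9976 to 0.998 for knockdown and 0.9925 to 0.9979 for overexpression. Pairs of replicate arrays had exactly the same value for 507 to 877 of 22277 probe sets in the overexpression arm and for 34 to 39 in the knockdown arm. Such ties include IL24 on TAp63γ replicates 2 and 3 (6.4689 on each), and their source was not tested. Of 6 epithelial markers, 6 lay above the median of their arrays in every group. Of 5 immune markers, 1, the lipopolysaccharide co-receptor CD14, lay above it in every group, and LYZ, the lysozyme of myeloid cells, lay in the lowest 20% in every group. Of 6 fibroblast markers, 3 lay above the median in each knockdown group and 2 in each overexpression group. Of 4 endothelial markers, 0 did so in any group. RNA of all cells in a dish was measured together, so fewer expressing cells and less RNA per cell cannot be told apart.

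By estimate, CSF3 had the largest change of the members against each vector: it was lower with both hairpins and higher with both overexpressed isoforms. It codes for granulocyte colony-stimulating factor, which drives the production of neutrophils. Its log2 levels were 7.58 and 7.53 with shDBD and 7.70 and 7.73 with shTA, against 8.46 and 8.25 with the shRNA vector. Neither hairpin group overlapped with the vector. CSF3 fell by 0.80 ± 0.13 on the log2 scale with shDBD (SE, n = 2 per group, 1.74-fold lower, adjusted p = 0.000245) and by 0.64 ± 0.13 with shTA (1.56-fold lower, adjusted p = 0.0128). The fall with shTA did not pass without shRNA vector replicate 1 (adjusted p = 0.192), shTA replicate 1 (0.0948) or shTA replicate 2 (0.104). Compared directly, shDBD and shTA differed by −0.16 (95% interval −0.43 to 0.11, adjusted p = 0.486). With shDBD the change of OSMR was of nearly the same size (−0.79 ± 0.22), so the order of CSF3 and OSMR is not resolved there.

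In the overexpression arm CSF3 had log2 levels of 10.95, 10.83 and 11.10 with ΔNp63α and 10.75, 10.46 and 10.34 with TAp63γ, against 9.25, 9.38 and 9.34 with the vector. Every array of either isoform lay above every vector array, and every ΔNp63α array above every TAp63γ array. The rise was 1.64 ± 0.10 with ΔNp63α (n = 3 per group, 3.11-fold, adjusted p = 1.08e-08), which placed CSF3 at rank 95 of 11963 genes ordered from the largest rise. With TAp63γ it was 1.19 ± 0.10 (2.29-fold, adjusted p = 1.4e-07), at rank 371. The difference between the isoforms, 0.44 ± 0.10, also passed (1.36-fold higher with ΔNp63α, adjusted p = 0.00274). Both hairpins share their vector arrays and both isoforms share theirs, so the changes within an arm are not independent of each other.

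The difference between the 3′ and 5′ actin control probe sets, a measure of RNA integrity, moved with the hairpins. It was 0.0483 to 0.0854 with shDBD and 0.00283 to 0.201 with shTA, against −0.0938 to −0.0799 with the shRNA vector. In the overexpression arm the ranges overlapped, at 0.123 to 0.231 with ΔNp63α, 0.00542 to 0.136 with TAp63γ and 0.124 to 0.235 with the vector. Its part in the changes of CSF3 and of the other members was not tested.

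**Figure D1:**
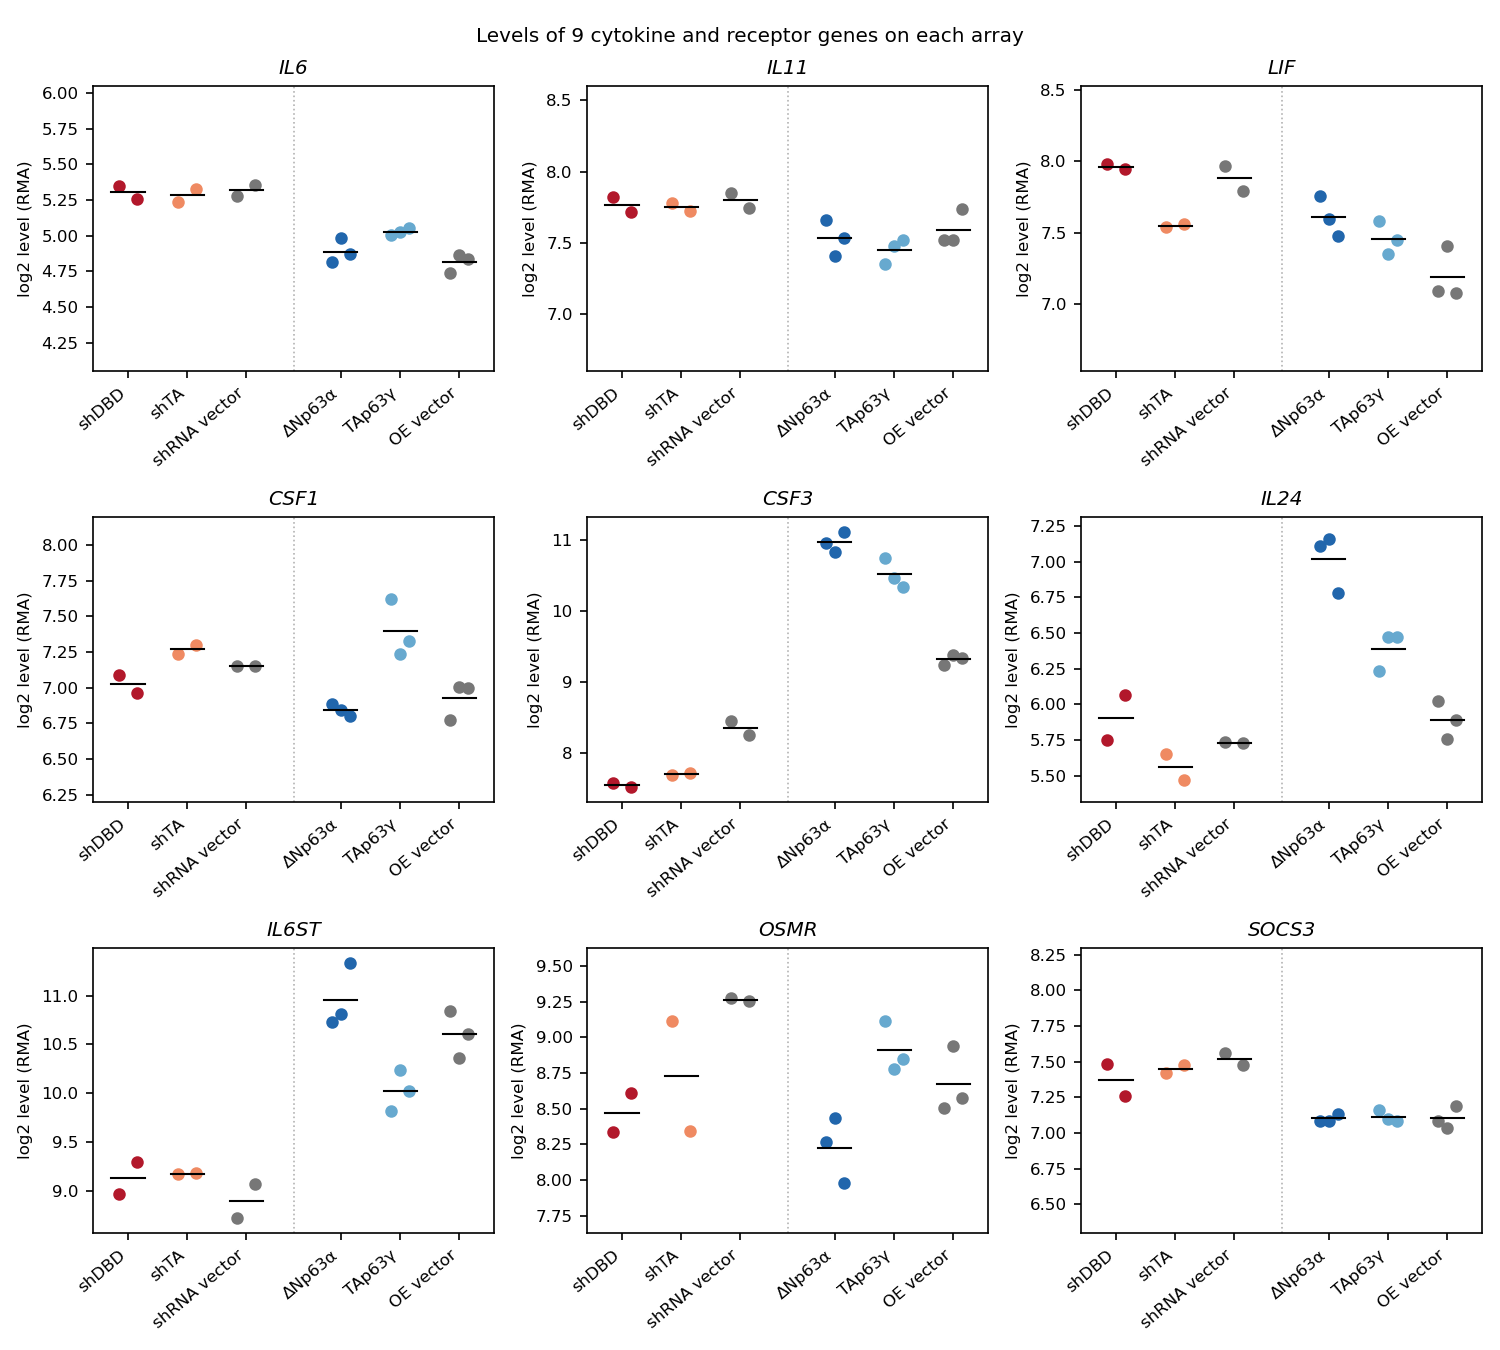
Log2 level of each of the 9 measured genes on every array, with the knockdown arm left and the overexpression arm right of the dotted line; points are arrays, black bars are group means, and the vertical axes differ between genes. CSF3 lies below the shRNA vector in all hairpin arrays and above the overexpression (OE) vector in all isoform arrays.

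IL24 rose with both isoforms and passed with neither hairpin. It codes for a cytokine of the IL-10 family that signals through STAT3 in skin and other epithelia and is known for growth-suppressing effects in tumour cells. The RefSeq promoter sequence of IL24 (GRCh38.p14, chr1:206897193-206897492, plus strand, 250 bases before to 50 bases after the gene start) is shown because IL24 was the cytokine gene with the largest change among the members with a matched entry. Capitals mark the match to a consensus half-site of the p53 family, at bases 17 to 26 of the window, and this match is a description of letters, not evidence of binding.
IL24: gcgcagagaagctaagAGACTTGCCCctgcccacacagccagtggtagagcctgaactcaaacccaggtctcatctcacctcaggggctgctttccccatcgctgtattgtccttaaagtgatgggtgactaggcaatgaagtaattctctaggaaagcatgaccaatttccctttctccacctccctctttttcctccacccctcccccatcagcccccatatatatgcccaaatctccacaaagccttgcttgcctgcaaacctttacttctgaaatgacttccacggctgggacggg
Both strands were searched for this consensus and for those of NF-kB, AP-1 (TGANTCA), C/EBP (TTGCNNAA) and STAT (TTCNNNGAA), and the IL24 window held none of the last 4. Of 35116 promoter windows of the same length, 6.63% held the half-site, 11.3% the NF-kB consensus, 7.71% AP-1, 10.5% C/EBP and 7.66% STAT.

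The log2 levels of IL24 were 7.11, 7.16 and 6.78 with ΔNp63α and 6.23, 6.47 and 6.47 with TAp63γ, against 6.02, 5.75 and 5.89 with the vector. The 3 groups did not overlap, with ΔNp63α highest and TAp63γ between it and the vector. IL24 rose by 1.13 ± 0.11 with ΔNp63α (2.18-fold, adjusted p = 1.92e-06) and by 0.50 ± 0.11 with TAp63γ (1.42-fold, adjusted p = 0.00183). The isoforms differed by 0.63 ± 0.11 (1.54-fold higher with ΔNp63α, adjusted p = 0.000376).

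In the knockdown arm IL24 had log2 levels of 5.75 and 6.06 with shDBD and 5.65 and 5.47 with shTA, against 5.74 and 5.73 with the shRNA vector. Its changes were 0.18 ± 0.14 with shDBD (adjusted p = 0.458) and −0.17 ± 0.14 with shTA (adjusted p = 0.689). The hairpins differed by 0.35 ± 0.14, which did not pass (adjusted p = 0.106) but did with the arms fitted separately (0.0343) and without ΔNp63α replicate 3 (0.0497).

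CSF1, the macrophage colony-stimulating factor, was higher with TAp63γ and not with ΔNp63α. Its log2 levels were 7.62, 7.24 and 7.33 with TAp63γ, against 6.77, 7.01 and 6.997 with the vector. With ΔNp63α they were 6.89, 6.84 and 6.80, below all TAp63γ arrays and within the range of the vector. The change was 0.47 ± 0.095 with TAp63γ (1.39-fold, adjusted p = 0.000691) and −0.08 ± 0.095 with ΔNp63α (adjusted p = 0.586), and the isoforms differed by −0.55 ± 0.095 (1.47-fold lower with ΔNp63α, adjusted p = 0.000226). This rested on 1 of 4 probe sets, the one with the highest mean. The other 3 changed by 0.06 to 0.20 with TAp63γ and did not pass when all probe sets were tested (adjusted p = 0.071 to 0.674), and 1 of them rose with ΔNp63α (0.30, adjusted p = 0.017). With the mean of the 4 probe sets the change with TAp63γ was 0.22 (adjusted p = 0.0256) and the difference between the isoforms −0.14 (adjusted p = 0.154). In the knockdown arm CSF1 was 7.09 and 6.96 with shDBD and 7.24 and 7.30 with shTA, against 7.15 and 7.16 with the shRNA vector, and no comparison there passed (adjusted p = 0.193 to 0.767).

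LIF, leukaemia inhibitory factor, an interleukin-6 type cytokine known for its role in embryo implantation and in stem cells, rose with ΔNp63α and, by a smaller estimate, with TAp63γ. It had log2 levels of 7.75, 7.59 and 7.47 with ΔNp63α and 7.58, 7.35 and 7.45 with TAp63γ, against 7.09, 7.40 and 7.08 with the vector. The ΔNp63α arrays lay above all vector arrays, and 1 of the 3 TAp63γ arrays lay below the highest vector array. The rise was 0.42 ± 0.10 with ΔNp63α (1.33-fold, adjusted p = 0.0053) and 0.27 ± 0.10 with TAp63γ (1.20-fold, adjusted p = 0.0442). The TAp63γ call was lost under 14 of 25 other settings (adjusted p up to 0.171), among them the omission of overexpression vector replicate 1 or 3 or of TAp63γ replicate 1 or 3. The difference between the isoforms did not pass (0.15, 95% interval −0.07 to 0.37, adjusted p = 0.27).

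With the hairpins, LIF had log2 levels of 7.98 and 7.95 for shDBD and 7.54 and 7.56 for shTA, against 7.97 and 7.79 for the shRNA vector. It was higher with shDBD than with shTA by 0.41 ± 0.12 (1.33-fold, adjusted p = 0.0283). That call was lost without any 1 of the 4 hairpin arrays (adjusted p = 0.0989 to 0.14). Against the vector, shTA gave −0.33 ± 0.12 (adjusted p = 0.22, and 0.0343 with the arms fitted separately) and shDBD 0.08 ± 0.12 (adjusted p = 0.748).

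IL6 itself, the cytokine that names the family, had a low signal: on all 15 arrays its probe set lay in the lowest 20% of signals, where a level cannot be told apart from background. Its log2 levels were 5.01, 5.02 and 5.05 with TAp63γ and 4.81, 4.98 and 4.87 with ΔNp63α, against 4.74, 4.86 and 4.84 with the vector. limma called the TAp63γ difference (0.21 ± 0.063, 1.16-fold, adjusted p = 0.0115), a call that was lost without overexpression vector replicate 1 (0.0605). With the hairpins IL6 lay at 5.35 and 5.26 for shDBD and 5.24 and 5.33 for shTA, against 5.28 and 5.36 for the shRNA vector, and the groups overlapped.

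IL11, an interleukin-6 type cytokine known for roles in bone and in fibrosis, passed in no comparison. Its log2 changes ranged from −0.14 with TAp63γ to 0.09 between the isoforms (adjusted p = 0.212 to 0.954), and in the direct comparison of ΔNp63α with TAp63γ the 95% interval ran from −0.10 to 0.27. A second IL11 probe set had the opposite sign between the isoforms (−0.22, adjusted p = 0.0368 with all probe sets tested).

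The 2 receptor chains separated the isoforms in opposite directions. IL6ST was higher with ΔNp63α than with TAp63γ, and OSMR, the oncostatin M receptor chain that pairs with gp130, was lower. The RefSeq promoter sequences of both (GRCh38.p14, the same window around the gene start) are shown for this contrast. They cover chr5:55994914-55995213 on the minus strand for IL6ST and chr5:38845762-38846061 on the plus strand for OSMR, and capitals mark matches to the consensuses named above.
IL6ST: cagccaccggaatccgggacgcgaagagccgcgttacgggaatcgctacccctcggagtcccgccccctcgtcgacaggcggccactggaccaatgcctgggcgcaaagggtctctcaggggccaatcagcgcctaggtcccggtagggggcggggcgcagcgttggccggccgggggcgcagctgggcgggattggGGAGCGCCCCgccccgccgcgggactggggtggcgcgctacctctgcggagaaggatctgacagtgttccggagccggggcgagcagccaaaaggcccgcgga
OSMR: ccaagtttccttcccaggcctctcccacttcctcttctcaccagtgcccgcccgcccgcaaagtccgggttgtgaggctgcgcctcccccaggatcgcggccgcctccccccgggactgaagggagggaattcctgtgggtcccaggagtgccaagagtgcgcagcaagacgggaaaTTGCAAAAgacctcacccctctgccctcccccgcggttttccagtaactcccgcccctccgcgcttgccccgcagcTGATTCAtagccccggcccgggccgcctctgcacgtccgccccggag
The IL6ST window held 1 match to the NF-kB consensus (bases 198 to 207), and the OSMR window held 1 to C/EBP (bases 178 to 185) and 1 to AP-1 (bases 254 to 260). The other consensuses searched were not found in these letters.

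IL6ST had log2 levels of 10.72, 10.81 and 11.33 with ΔNp63α and 9.82, 10.24 and 10.02 with TAp63γ, against 10.85, 10.36 and 10.61 with the vector. The TAp63γ arrays lay below all others, and the ΔNp63α arrays overlapped with the vector. IL6ST fell by 0.58 ± 0.17 with TAp63γ (1.5-fold lower, adjusted p = 0.00938), a call that narrowly failed without overexpression vector replicate 1 (0.0508) or TAp63γ replicate 1 (0.0506). With ΔNp63α the change was 0.35 ± 0.17 (adjusted p = 0.138). It passed with the mean of the 5 probe sets (0.20, adjusted p = 0.044), and it was 0.16 without ΔNp63α replicate 3 and 0.23 without overexpression vector replicate 2. The isoforms differed by 0.93 ± 0.17 (1.91-fold higher with ΔNp63α, adjusted p = 0.000324).

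Another of the 5 IL6ST probe sets gave nearly the same values. Its log2 levels were 9.65, 9.57 and 10.12 with ΔNp63α and 8.82, 8.92 and 8.81 with TAp63γ, against 9.60, 9.29 and 9.43 with the vector. When all probe sets were tested it fell by 0.59 with TAp63γ (adjusted p = 0.000987) and differed by 0.93 between the isoforms (adjusted p = 2.41e-05). Of the other 3 probe sets, 1 passed with the same signs (−0.29 with TAp63γ, adjusted p = 0.0258), and 2 did not pass (−0.10 and −0.13, adjusted p = 0.394 and 0.451). All 5 were higher with ΔNp63α than with TAp63γ, by 0.17 to 0.93 on the log2 scale. The differences of 0.17 and 0.29 did not pass when all probe sets were tested (adjusted p = 0.133 and 0.0859). With the hairpins IL6ST lay at 8.97 and 9.30 for shDBD and 9.17 and 9.18 for shTA, against 8.73 and 9.07 for the shRNA vector, and passed in neither comparison with it (0.24 and 0.28, adjusted p = 0.505 and 0.636).

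**Figure D2:**
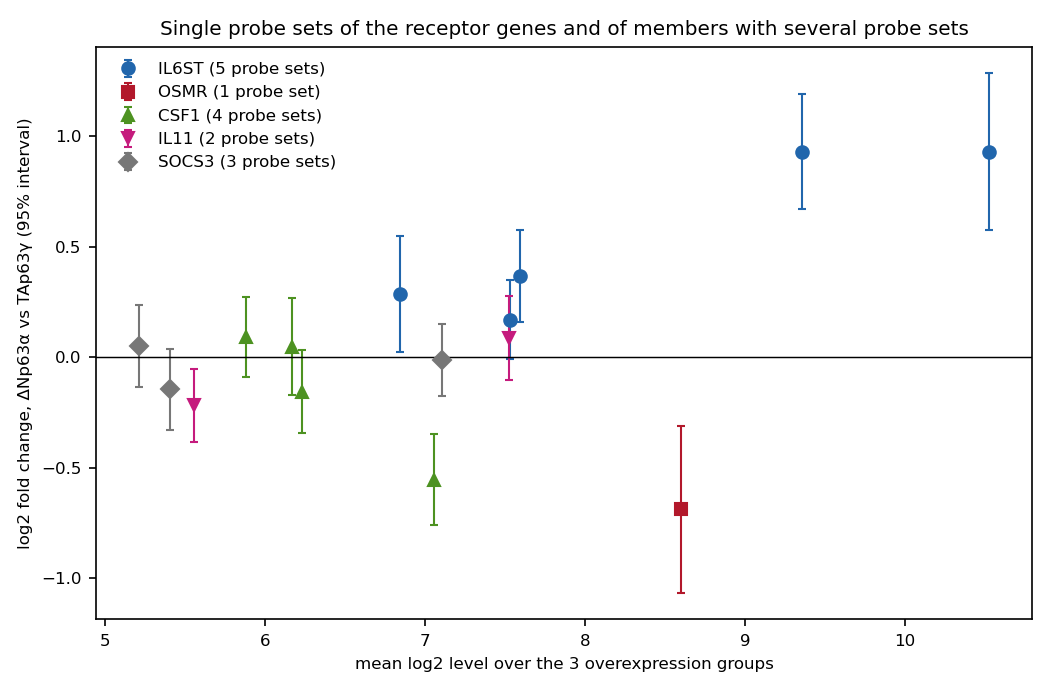
Log2 fold change of ΔNp63α against TAp63γ for single probe sets (vertical axis, 95% interval) over their mean log2 level in the overexpression arm (horizontal axis). Estimates of the 5 IL6ST probe sets lie above 0 and that of the OSMR probe set below it. Among the 4 CSF1 probe sets the one with the highest mean lies apart from the others.

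OSMR had log2 levels of 8.26, 8.43 and 7.98 with ΔNp63α and 9.11, 8.78 and 8.85 with TAp63γ, against 8.50, 8.94 and 8.57 with the vector. The ΔNp63α arrays lay below all vector and TAp63γ arrays, and TAp63γ overlapped with the vector. ΔNp63α and TAp63γ differed by −0.69 ± 0.18 (1.61-fold lower with ΔNp63α, adjusted p = 0.00534), while the change against the vector was −0.45 ± 0.18 with ΔNp63α (adjusted p = 0.0722, and 0.0285 without either shTA array) and 0.24 ± 0.18 with TAp63γ (adjusted p = 0.303).

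In the knockdown arm OSMR had log2 levels of 8.33 and 8.61 with shDBD and 9.12 and 8.35 with shTA, against 9.27 and 9.25 with the shRNA vector. All hairpin arrays lay below the vector, and the 2 shTA arrays were far apart. OSMR fell by 0.79 ± 0.22 with shDBD (1.73-fold lower, adjusted p = 0.015), which did not pass without shDBD replicate 1 (0.142), shRNA vector replicate 1 (0.083) or shRNA vector replicate 2 (0.0727). The change with shTA was −0.53 ± 0.22 (adjusted p = 0.28), and the hairpins did not differ detectably from each other (−0.26, 95% interval −0.72 to 0.20, adjusted p = 0.511).

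Beside these changes with shDBD, 1 of 5 immune, 1 of 6 fibroblast and 2 of 4 endothelial markers rose with that hairpin. Over all genes 11.1% were called higher with it. The mean log2 level of the immune list was 6.50 to 6.62 with shDBD and 6.30 to 6.33 with shTA, against 6.21 to 6.28 with the shRNA vector. That of the fibroblast list was 7.46 to 7.54 with shDBD and 7.21 to 7.30 with shTA, against 7.09 to 7.11. The median change with shDBD was 0.09 over the immune list and 0.06 over the fibroblast list. The higher means with shDBD thus came mostly from the 1 called gene of each list. CD14 (1.27 ± 0.11) and the proteoglycan DCN (2.37 ± 0.13) rose among the first 2 lists, as did PECAM1 (0.41 ± 0.12) and KDR (0.29 ± 0.093) among the endothelial markers, while the leukocyte gene PTPRC (0.07) and the collagen gene COL1A1 (−0.11) did not pass. DCN also rose with shTA (0.83 ± 0.13). CD14 fell with ΔNp63α (−0.48 ± 0.091) and TAp63γ (−0.55 ± 0.091), and no other immune marker passed with either isoform. With ΔNp63α, 1 of 6 fibroblast markers fell (DCN, −0.39 ± 0.11) and 1 of 4 endothelial markers rose (PECAM1, 0.31 ± 0.096), and with TAp63γ 0 of either list were called. Of the 6 epithelial markers, 2 rose and 4 fell with ΔNp63α (median −0.42), and 3 rose and 2 fell with TAp63γ (median 0.27). The shares of all genes called were 28.9% with ΔNp63α and 43.4% with TAp63γ. The basal keratin KRT14 rose by 1.90 ± 0.094 with ΔNp63α and by 2.08 ± 0.094 with TAp63γ, and the cell adhesion gene CDH1 changed by −0.80 ± 0.084 with ΔNp63α and by 0.12 ± 0.084 with TAp63γ, where it did not pass. With the hairpins 1 epithelial marker rose and 1 fell with shDBD, and 0 rose and 1 fell with shTA, where 21.3% and 2.29% of all genes were called. The part of other cell types in the changes of the members was not tested.

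SOCS3 passed in no comparison. Its log2 levels were 7.09, 7.09 and 7.13 with ΔNp63α and 7.16, 7.10 and 7.08 with TAp63γ, against 7.09, 7.03 and 7.19 with the vector, so the 3 groups overlapped. The change was −0.00054 with ΔNp63α (95% interval −0.16 to 0.16) and 0.01 with TAp63γ (95% interval −0.16 to 0.17). With shDBD it lay at 7.49 and 7.26 and with shTA at 7.42 and 7.47, against 7.56 and 7.48 with the shRNA vector. The change with shDBD was −0.15 (95% interval −0.34 to 0.046, adjusted p = 0.315) and with shTA −0.07 (95% interval −0.26 to 0.12, adjusted p = 0.826). The other 2 SOCS3 probe sets passed in no comparison either.

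**Figure D3:**
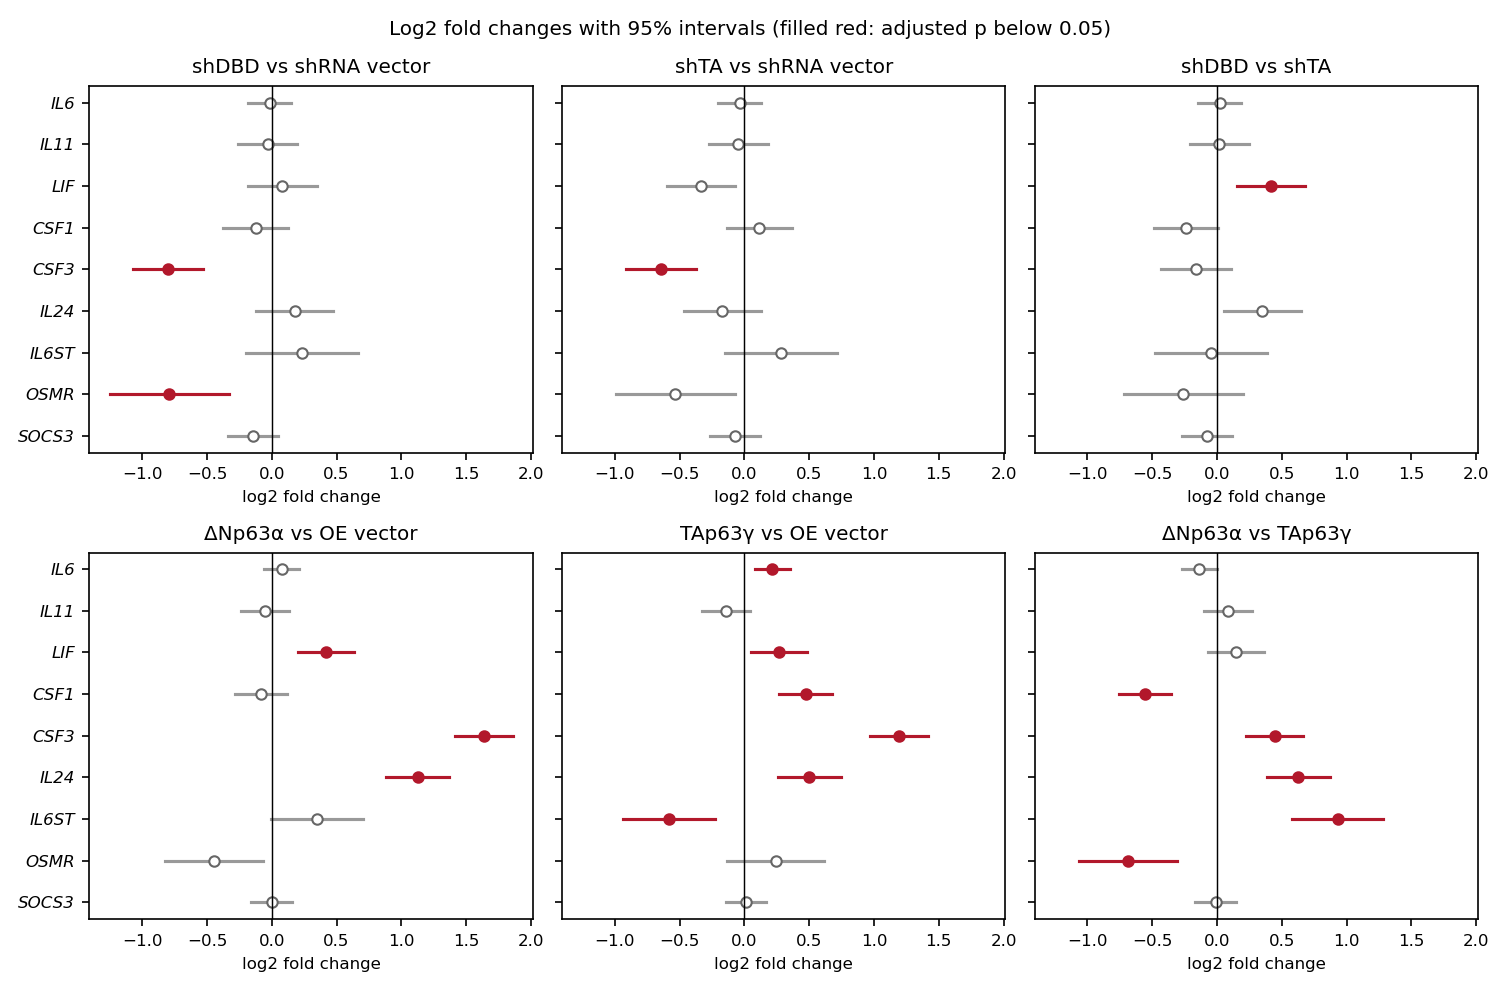
Log2 fold change (horizontal axis) of the 9 measured genes in the 6 comparisons, with points for the estimates and lines for 95% intervals from limma; filled red marks an adjusted p below 0.05. CSF3 lies left of 0 with both hairpins and right of 0 with both isoforms.

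Counted over the 9 members, 2 fell and 0 rose with shDBD (CSF3 and OSMR), where 21.3% of all genes were called, 11.1% higher and 10.2% lower. With shTA 1 fell and 0 rose (CSF3), against 2.29% of all genes called, 1.44% higher and 0.853% lower. Between the hairpins 1 was higher with shDBD (LIF), against 18.4% of all genes called, 9.14% higher and 9.23% lower. With ΔNp63α 3 rose and 0 fell (CSF3, IL24 and LIF), against 28.9% of all genes called, 12.3% higher and 16.6% lower. With TAp63γ 5 rose (CSF3, IL24, CSF1, LIF and IL6) and 1 fell (IL6ST), among them the low-signal IL6 and LIF, whose call was lost under 14 of 25 settings, against 43.4% of all genes called, 20.5% higher and 22.8% lower. Between the isoforms 3 were higher with ΔNp63α (CSF3, IL24 and IL6ST) and 2 lower (CSF1 and OSMR), against 39.8% of all genes called, 19.2% higher and 20.6% lower. With 9 members these shares are coarse, and the counts with shDBD and ΔNp63α lie near those of all genes. The median change of the members was 0.08 with ΔNp63α and 0.24 with TAp63γ, where the median of all genes was −0.0049 and −0.023. At least 2-fold were CSF3 and IL24 with ΔNp63α and CSF3 with TAp63γ, against 2.73% and 8.4% of all genes. No member passed a 2-fold change with shDBD, with shTA, between the hairpins or between the isoforms, where 2.83%, 0.251%, 2.36% and 5.23% of all genes did. The arrays of the compared groups did not overlap for 4 of the 9 members with shDBD (61.7% of all genes), 7 with shTA (50.7%), 4 between the hairpins (60.3%), 4 with ΔNp63α (36.5%), 5 with TAp63γ (49.9%) and 6 between the isoforms (45.8%).

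Among genes that are known to induce these cytokines, most rose with the isoforms. Of 17 measured upstream genes of the interleukin-1, Toll-like receptor and NF-kB pathways, 10 rose and 0 fell with ΔNp63α (median 0.43) and 12 rose and 0 fell with TAp63γ (median 0.67). The shares of all genes called higher were 12.3% with ΔNp63α and 20.5% with TAp63γ. The inflammatory cytokine IL1B rose by 1.67 ± 0.10 with ΔNp63α and by 3.86 ± 0.10 with TAp63γ, a difference of −2.18 ± 0.10 between them (adjusted p = 2.6e-10). That order was the opposite of CSF3 and IL24, which were higher with ΔNp63α. The part of IL1B in the changes of the members was not tested. The receptor TLR2 rose by 1.33 ± 0.11 with ΔNp63α and by 1.25 ± 0.11 with TAp63γ, and the adaptor MYD88 by 1.05 ± 0.086 and by 1.33 ± 0.086. NFKB2, an NF-kB subunit, rose by 0.63 ± 0.12 with ΔNp63α and by 1.42 ± 0.12 with TAp63γ, and TLR3, a receptor for double-stranded RNA, by 1.17 ± 0.12 and by 0.53 ± 0.12. The inflammatory cytokine TNF did not pass with ΔNp63α (0.07 ± 0.07) and rose with TAp63γ (0.21 ± 0.07, adjusted p = 0.0236).

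With the hairpins the same list was divided. With shDBD 4 of 17 rose and 3 fell, and with shTA 2 rose and 0 fell, where 21.3% and 2.29% of all genes were called. The fallen genes with shDBD were IL1A (−0.93 ± 0.091), IL1B (−0.77 ± 0.12) and FOSL1, an AP-1 subunit (−0.78 ± 0.26). The interleukin-1 receptor IL1R1 rose with shDBD (1.15 ± 0.13) and with shTA (1.499 ± 0.13), and IL1A and IL1B did not pass with shTA (−0.24 and −0.17).

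STAT3, the transcription factor below gp130, differed between the isoforms. Its change was 0.02 ± 0.097 with ΔNp63α (adjusted p = 0.926) and 1.23 ± 0.097 with TAp63γ (adjusted p = 5.16e-08), a difference of −1.21 ± 0.097 (adjusted p = 1.28e-07). Of 10 measured genes of JAK-STAT signalling, 2 rose and 2 fell with ΔNp63α, and 3 rose and 4 fell with TAp63γ. The shares of all genes called were 28.9% and 43.4%. The listed genes called with TAp63γ included the adaptor GRB2 (0.88 ± 0.12) and the phosphatase PTPN11 (−0.87 ± 0.12), which did not pass with ΔNp63α (0.08 and −0.30). The kinase TYK2 rose with ΔNp63α (0.40 ± 0.11) and TAp63γ (0.80 ± 0.11). The kinase JAK1 fell by nearly the same amount with ΔNp63α (−0.38 ± 0.088) and TAp63γ (−0.37 ± 0.088). With shDBD 1 of 10 rose, which was STAT3 (0.60 ± 0.12), and with shTA 0 were called. The shares of all genes called were 21.3% with shDBD and 2.29% with shTA.

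Of 16 genes described as STAT3 targets, 4 rose and 2 fell with ΔNp63α, and 6 rose and 6 fell with TAp63γ. Over all genes 28.9% and 43.4% were called. LCN2, an iron-siderophore-binding protein of the acute phase, rose by 1.24 ± 0.098 with ΔNp63α and by 2.78 ± 0.098 with TAp63γ. SERPINA3, a protease inhibitor of the acute phase, rose with TAp63γ (1.54 ± 0.074), did not pass with ΔNp63α (0.02 ± 0.074) and was 1.53 ± 0.074 lower with ΔNp63α than with TAp63γ on the log2 scale. The adhesion molecule ICAM1, which NF-kB also induces, rose with ΔNp63α (1.08 ± 0.12) and TAp63γ (1.73 ± 0.12). MCL1, an anti-apoptotic BCL2 protein, rose with ΔNp63α (0.68 ± 0.06) and fell with TAp63γ (−0.32 ± 0.06). The AP-1 subunit JUNB rose with ΔNp63α (0.86 ± 0.13) and TAp63γ (0.59 ± 0.13). With shDBD 1 of 16 rose, the transcriptional repressor BCL6 (1.10 ± 0.15), and 3 fell, VEGFA (−0.97 ± 0.15), MYC (−0.51 ± 0.072) and MCL1 (−0.33 ± 0.073). With shTA 2 rose, SERPINA3 (1.10 ± 0.09) and BCL6 (0.71 ± 0.15), and 1 fell, BCL2L1 (−0.62 ± 0.093). Over all genes 21.3% were called with shDBD and 2.29% with shTA.

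**Figure D4:**
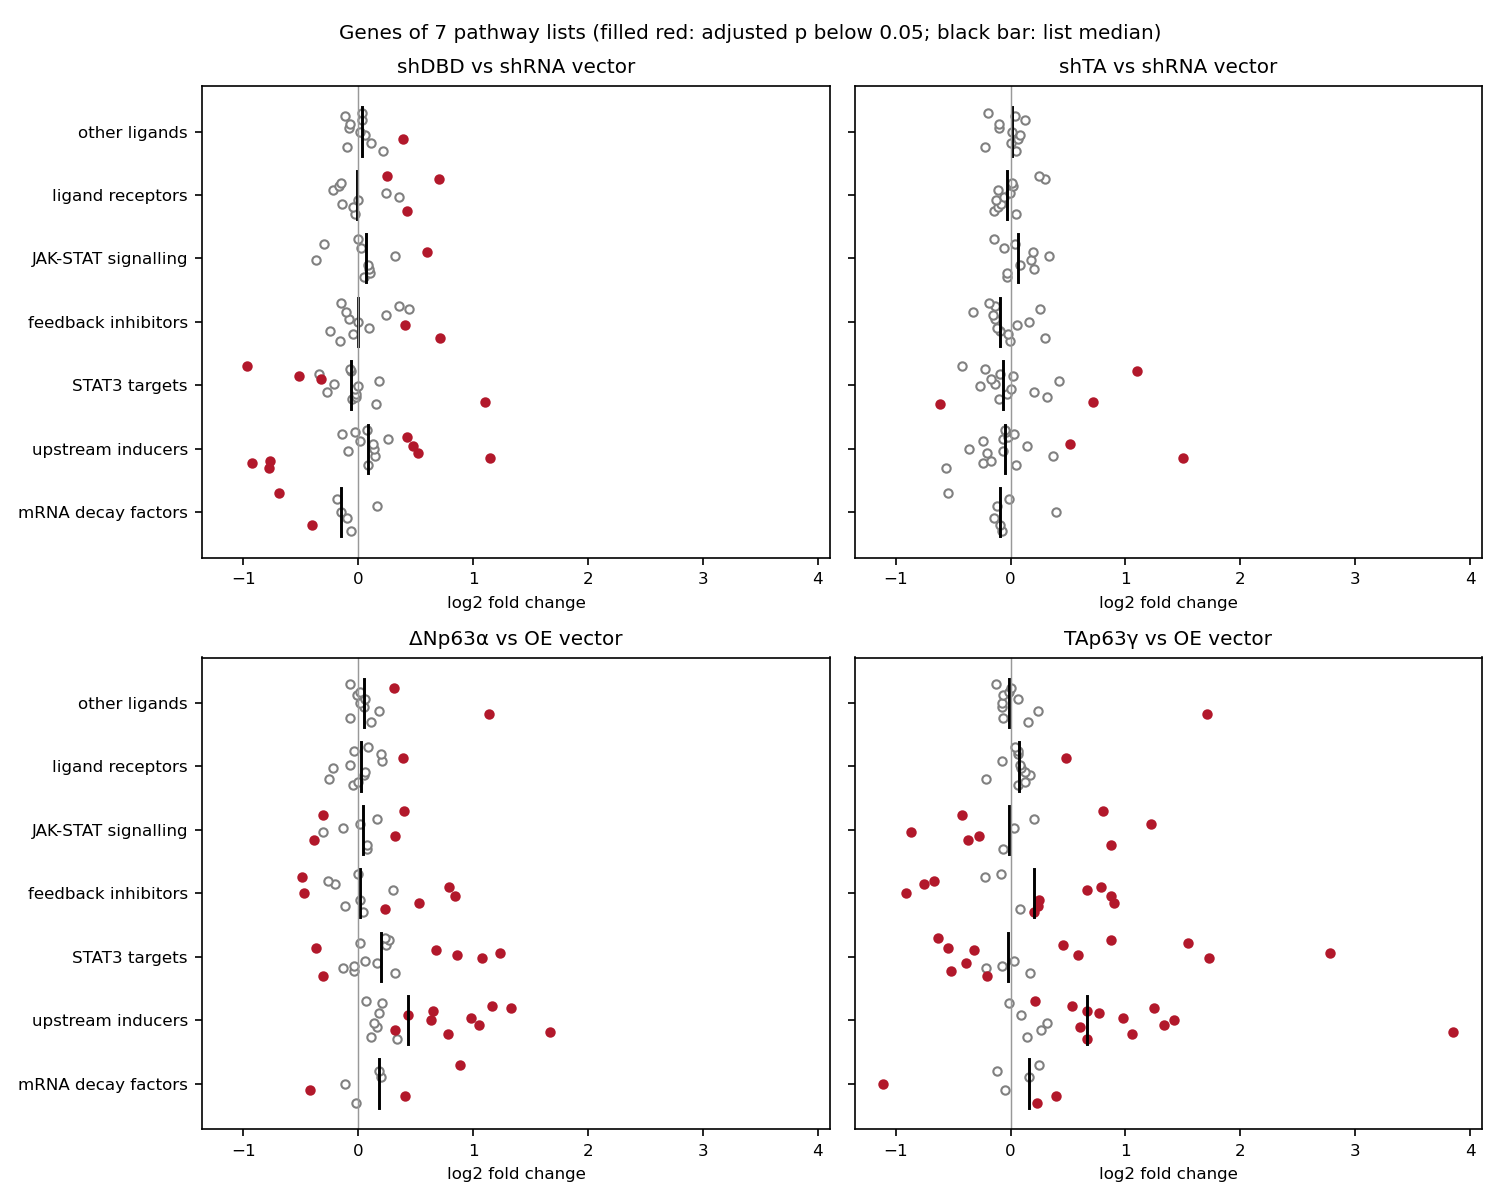
Log2 fold change (horizontal axis) of single genes in 7 lists around the pathway, for each treatment against its vector; filled red marks an adjusted p below 0.05 and black bars mark list medians. The list of upstream inducers has its median at 0.43 with ΔNp63α and 0.67 with TAp63γ.

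Of 13 measured feedback inhibitors other than SOCS3, 4 rose, 2 fell and 7 did not pass with ΔNp63α, where 28.9% of all genes were called. With TAp63γ 7 rose, 3 fell and 3 did not pass, where 43.4% were called. SOCS1, a JAK inhibitor induced by interferons, rose by 0.79 ± 0.099 with each isoform (adjusted p = 1.89e-05 with ΔNp63α and 7.97e-06 with TAp63γ). The phosphatase PTPN1 rose by 0.84 ± 0.10 with ΔNp63α and 0.88 ± 0.10 with TAp63γ, and PIAS3, a protein that binds STAT3, by 0.53 ± 0.072 and 0.90 ± 0.072. PTPN2, another phosphatase of JAKs, fell with ΔNp63α (−0.47 ± 0.086) and TAp63γ (−0.91 ± 0.086). With shDBD 2 of 13 rose, PIAS1 (0.71 ± 0.099) and PTPN1 (0.41 ± 0.13), and with shTA 0 were called. Over all genes 21.3% were called with shDBD and 2.29% with shTA.

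Most ligands and receptors of the wider family did not pass. Of 11 other ligands, 2 rose with ΔNp63α, 1 with TAp63γ, 1 with shDBD and 0 with shTA. The shares of all genes called higher were 12.3%, 20.5%, 11.1% and 1.44%, in the same order. EBI3, a subunit of the gp130 ligand IL-27, rose by 1.14 ± 0.096 with ΔNp63α and by 1.71 ± 0.096 with TAp63γ, and OSM, oncostatin M, did not pass with either (−0.07 and −0.12). KITLG also rose with ΔNp63α, at mean log2 levels of 4.76 against 4.44 with the vector, both below those of the low-signal IL6 (4.89 and 4.81). The ligand called with shDBD was FLT3LG, at 5.62 against 5.23 with the shRNA vector (adjusted p = 0.0486). That vector level lay below that of IL6 (5.32). Of 12 ligand receptors, 1 rose with each isoform, IL22RA1, a chain of the receptors for IL-22 and IL-24 (0.39 ± 0.087 with ΔNp63α and 0.48 ± 0.087 with TAp63γ). Over all genes 12.3% were called higher with ΔNp63α and 20.5% with TAp63γ. With shDBD 3 of 12 rose, IL6R (0.70 ± 0.21), CSF1R (0.42 ± 0.10) and LIFR (0.25 ± 0.08), and with shTA 0 were called. Over all genes 11.1% were called higher with shDBD and 1.44% with shTA. Mean log2 levels of LIFR were 4.45 with shDBD and 4.19 with the shRNA vector, below those of IL6 (5.30 and 5.32). At such levels a signal cannot be told apart from background.

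The genes with the pattern most like a member were those with the smallest maximum difference from it over the log2 changes of the 4 treatments against their vectors, each mean resting on 2 or 3 arrays. For CSF3 they were the transcription factor KLF7 (within 0.39) and GNG11, a G protein subunit (within 0.48), so no other gene lay close to it. For IL24 they were SH3TC2 (within 0.18) and FGD6 (within 0.20), for IL6ST FAM8A1 (within 0.11) and ZNF141 (within 0.14), and for OSMR AKIP1 (within 0.15) and NME4 (within 0.21). For LIF they were TMEM158 (within 0.089) and PRSS3 (within 0.13), and for CSF1 CMC2 (within 0.066) and MRPL17 (within 0.069). Genes whose changes are near 0 have many neighbours, as for IL11, SOCS3 and IL6, whose nearest genes COL14A1, SEPTIN4 and BORCS8 lay within 0.015, 0.016 and 0.024.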

How the data were processed

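Total RNA of MCF-10A cells was hybridised to 15 Affymetrix arrays, which were assigned to their 6 groups by their titles. The deposited values are log2 levels, and RMA is the method the submitters' processing notes name for the authors' processing of probe sets. Its version is not given in the sources used here, and neither is whether 1 run covered all arrays. RMA evens out the distributions of arrays and compresses low levels. Of 22277 probe sets, 19064 had 1 symbol in the platform annotation, 1043 had several, 2108 were not listed and 62 were array controls. Through Entrez identifiers, 19052 of those with 1 symbol were found in a RefSeq gene table, with 0 symbols altered. Each gene takes the values of its single-symbol probe set with the highest mean over all arrays. The p63 transcript and CSF2 are not reported here.

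Tests used limma 3.58.1 (R 4.3.3) with 1 coefficient for each group of the 15 arrays (9 residual and 5.87 prior degrees of freedom), a variance trend, two-sided tests and Benjamini-Hochberg adjustment over 11963 genes at 0.05. Precision is limited by how few arrays each group has. Each SE and p-value rests on 1 variance per gene, pooled within groups over all 15 arrays of both arms and drawn toward other genes. It is not the spread of the 2 compared groups alone. The median residual SD was 0.0821 in the knockdown arm and 0.113 in the overexpression arm. With the arms fitted separately, 8.89% of genes were called with shTA and 23.8% with ΔNp63α, in place of 2.29% and 28.9%. On simulated data with a log2 change of 1 in 200 of 11963 genes, 94.5% were recovered for shDBD and 97.5% for ΔNp63α, with 5 and 6 false calls. With a change of 0.5, 54.5% and 70.5% were recovered, with 11 and 5 false calls. The simulated noise was normal and independent between arrays and genes, with 1 SD per gene for both arms. In the real data the SD differed between arms and far more genes were called with shDBD and ΔNp63α. These rates therefore need not hold for the real arrays.

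All 10 members were to be described. Of 7 further lists (other ligands, ligand receptors, JAK-STAT signalling, feedback inhibitors, STAT3 targets, upstream inducers and mRNA decay factors), up to 4 called genes with the largest change whose arrays did not overlap and up to 2 uncalled genes could be named per comparison; the value with the other isoform was added for such genes after the values were seen. Epithelial, immune, fibroblast and endothelial markers were checked; their values stand beside the results. Members, lists and tests were chosen with earlier results of these data known. Same-numbered arrays of different groups did not deviate together (correlations −0.63 to 0.48 in the overexpression arm and 0.0014 to 0.069 in the knockdown arm), so the numbers were not taken as pairs. Differently numbered arrays of the overexpression arm had correlations of −0.73 to 0.68. Arrays of different groups there thus shared deviations that the replicate numbers do not follow. The main fit treats all arrays as independent, and a replicate block by number cannot take up such deviations. Alternatives were other normalizations, other choices and filters of probe sets, a floor, other variance priors, separate arms, a replicate block and the omission of each array. Promoters came from RefSeq tables, in which 7 of 10 members had an entry.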

Additional observations from a re-analysis of the deposited data

How the results depend on the processing

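The 54 changes of 9 members in 6 comparisons were recomputed under 25 alternatives, of which 15 left out 1 array each. Of 18 changes that passed, 11 kept their direction and passed under all alternatives that gave a value, and of 36 that did not pass, 31 never did. In 2 cases an alternative turned a direction, both for IL6 with values floored at the 20th percentile. All its arrays lay under the floor, so these values are differences between the floors of the arrays and say nothing of IL6: −0.022 for TAp63γ against the vector and 0.047 for ΔNp63α against TAp63γ. With genes of low level left out, IL6 gave no value.

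The number of members called was 2 with shTA and 2 between the hairpins with the arms fitted separately, in place of 1 each. With TAp63γ it was 4 in place of 6 with the floor (IL6 and LIF lost), and between the isoforms 4 in place of 5 with the mean of probe sets (CSF1 lost). Leaving out 1 array gave 1 to 2 members with shDBD, 0 to 1 with shTA, 0 to 2 between the hairpins, 3 to 4 with ΔNp63α, 3 to 6 with TAp63γ and 5 to 6 between the isoforms. The 3 with TAp63γ were found without overexpression vector replicate 1. The replicate block gave 5 members with TAp63γ in place of 6, as LIF no longer passed (adjusted p = 0.061), and changed no other call. In the knockdown arm 2 arrays per group limit every call, and there the omission of 1 array ended the calls of CSF3 with shTA, OSMR with shDBD and LIF between the hairpins; the fewer arrays are part of each of these alternatives.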

Other observations

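The transcripts of several cytokines described here carry AU-rich elements that RNA-binding proteins use to set their decay, and 7 genes of such proteins were measured. With ΔNp63α 2 of 7 rose and 1 fell, with TAp63γ 2 rose and 1 fell, with shDBD 0 rose and 2 fell, and with shTA 0 were called. The shares of all genes called were 28.9%, 43.4%, 21.3% and 2.29%, in the same order. ZFP36L2, a decay factor, rose with ΔNp63α (0.89 ± 0.13), did not pass with TAp63γ (0.25 ± 0.13) and fell with shDBD (−0.69 ± 0.16). HNRNPD, also called AUF1, rose with ΔNp63α (0.41 ± 0.096) and TAp63γ (0.40 ± 0.096) and fell with shDBD (−0.40 ± 0.12). TIA1, a translational repressor, fell with TAp63γ (−1.11 ± 0.10) and did not pass with ΔNp63α (−0.12 ± 0.10). KHSRP, a decay factor, fell with ΔNp63α (−0.42 ± 0.075) and did not pass with TAp63γ (−0.05 ± 0.075). ZFP36, known as tristetraprolin, did not pass with ΔNp63α (0.20 ± 0.085) or TAp63γ (0.16 ± 0.085).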
